A study of Mus musculus with 5 samples.

Results

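Genomic imprinting leaves a gene expressed mainly from the chromosome of 1 parent, and 10 mouse genes of this kind were followed through the differentiation of embryonic stem cells (ES) to motor neurons. They were taken by name: Meg3, Dlk1, H19, Igf2, Peg3, Mest, Cdkn1c, Grb10, Plagl1 and Ndn. Probes were assigned to genes through the accession that the scanner files give for each probe, and 9 of the 10 genes had at least 1 matched probe, out of 19897 genes matched in all. H19 had no matched probe and is not analysed here. The other genes had 18 probes together, and 5 of them had several.

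Every sample was wild type and labelled male, and each time point was measured on 1 Agilent 1-colour microarray, so there were no replicates and no test was made. ES cells were the untreated start of the series. Day2 was embryoid bodies, which are aggregates of differentiating ES cells, after 8 h of retinoic acid (RA), and Day3 and Day4 were embryoid bodies after 1 and 2 days of RA. The Day7 sample had 5 days of RA and is called motor neurons in its source label, while its tissue label is embryoid bodies and the treatment field gives RA and Shh from day 2 to day 5. The study's methods name the smoothened agonist SAG in place of Shh. The labels do not name the cell line or a sorting step, so each array is treated here as a mixed culture. In such bulk samples fewer cells of a type and less RNA per cell cannot be told apart, and the arrays do not separate the maternal from the paternal allele.

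Imprints are set as DNA methylation in the germ line and are kept through cell division, after the early embryo has lost most other methylation, by a machinery that includes the zinc finger protein ZFP57, its partner TRIM28 and the maintenance methyltransferase DNMT1. Many imprinted genes act on growth: paternally expressed genes such as Igf2, Dlk1, Peg3, Mest and Plagl1, and maternally expressed genes such as Cdkn1c and Grb10, are known for effects on the size of the embryo and placenta, often in opposite directions. Imprinted genes lie in clusters whose members share a control region, so the neighbours of each gene are described beside it.

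The promoters of the genes described most below are printed first, because they show how different the sequences are from which these transcripts start. They come from RefSeq on the mouse assembly GRCm38.p6, which is not the assembly the array was designed on, and cover the 250 bases before an annotated start, read 5′ to 3′ on the strand of the gene. RefSeq windows were matched for 8 of the 10 genes, 15 windows in all, since several genes have more than 1 annotated start. Capitals mark matches on either strand to TGCCGC, the core of the sequence that ZFP57 binds, and to TGACGTCA, the cyclic AMP response element. A match describes the letters of the window and is not a site shown to be bound.

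Meg3, chr12:109540746-109540995, plus strand: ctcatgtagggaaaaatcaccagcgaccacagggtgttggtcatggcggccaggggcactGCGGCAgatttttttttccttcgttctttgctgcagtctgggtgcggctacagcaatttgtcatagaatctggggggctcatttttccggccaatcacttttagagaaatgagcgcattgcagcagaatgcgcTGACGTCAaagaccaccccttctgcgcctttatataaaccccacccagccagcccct
Dlk1, chr12:109452573-109452822, plus strand: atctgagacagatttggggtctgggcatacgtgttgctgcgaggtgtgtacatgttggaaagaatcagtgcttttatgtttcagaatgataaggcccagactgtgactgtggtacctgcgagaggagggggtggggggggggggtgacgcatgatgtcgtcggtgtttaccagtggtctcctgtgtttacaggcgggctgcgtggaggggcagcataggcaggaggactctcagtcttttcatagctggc
Plagl1, chr10:13090582-13090831, plus strand: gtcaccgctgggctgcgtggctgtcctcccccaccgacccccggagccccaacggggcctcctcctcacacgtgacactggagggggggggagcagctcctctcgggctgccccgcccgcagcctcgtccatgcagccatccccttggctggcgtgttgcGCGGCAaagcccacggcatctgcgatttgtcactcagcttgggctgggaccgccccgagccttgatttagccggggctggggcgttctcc
Peg3, chr7:6730420-6730669, minus strand: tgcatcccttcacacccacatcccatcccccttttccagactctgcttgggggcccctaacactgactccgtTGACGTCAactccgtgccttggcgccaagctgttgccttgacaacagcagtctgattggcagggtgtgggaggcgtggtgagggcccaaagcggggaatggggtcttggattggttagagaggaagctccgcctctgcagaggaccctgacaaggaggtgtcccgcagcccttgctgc
Mest, chr6:30737800-30738049, plus strand: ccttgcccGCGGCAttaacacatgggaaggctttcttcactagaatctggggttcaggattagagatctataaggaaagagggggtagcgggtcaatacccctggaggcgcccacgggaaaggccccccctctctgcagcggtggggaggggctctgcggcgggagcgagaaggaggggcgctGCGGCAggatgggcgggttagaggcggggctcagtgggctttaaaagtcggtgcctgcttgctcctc

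TGCCGC stood, always as its reverse complement, in 4 of the 15 windows, which belonged to Meg3, Plagl1 and Mest, and it was in 8.68% of all 32851 promoter windows of the same length. The Mest window held it at 2 places, and a further Mest start 3 bases away gives a largely overlapping window with the same matches. TGACGTCA stood in the windows of Meg3 and Peg3, against 1.55% of all windows. The hexamer AGGTCA, the unit of retinoic acid response elements, was searched on both strands as well and was in 2 of the 15 windows, a downstream start of Meg3 and 1 start of Igf2, against 14.0% of all windows. No window of these genes held AGGTCA as a direct repeat with 5 bases between, but only 0.00913% of all windows did. This exact repeat is so rare that its absence from 15 windows says little. The Dlk1 window held none of the motifs. Counts of CpG, the dinucleotide that carries DNA methylation, ran from 0 in the downstream Meg3 window to 40 in a Grb10 window, with 10 in the Meg3 window printed, 19 in that of Plagl1 and 8 in those of Dlk1 and Peg3. The median over all windows was 6.

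Some of these genes also carry miRNA genes inside their transcribed region, and the mature forms, which were not measured on these arrays, are given with the seed (bases 2 to 8) in capitals so that the host gene's course can be read with them in mind. miR-770-5p lies within Meg3, miR-483-3p within Igf2 and miR-335-5p within Mest, and the 3 seeds differ.

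miR-770-5p: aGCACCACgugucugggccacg
miR-483-3p: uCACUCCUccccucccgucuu
miR-335-5p: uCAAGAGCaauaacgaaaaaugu

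The time points were checked against marker lists. From ES to Day7, 8 of 10 pluripotency markers fell at least 2-fold, and 8 of 8 motor neuron markers and 11 of 12 pan-neuronal markers rose at least 2-fold, where 24.8% of all genes rose and 24.4% fell. Of 7 neural progenitor markers 5 rose and 2 fell. Markers of other cell types were also measured. The log2 of the summed signal of 14 fibroblast markers went from 14.77 in ES and 14.52 on Day2 to 15.94 on Day3 and 16.77 on Day4, and was 14.08 on Day7, with 10 to 14 of them well above background. The sum did not follow most of the list, of which 8 of 14 rose and 3 fell from ES to Day7, with a median of 1.96 (0.98 with normexp), and 4 rose and 2 fell from Day4 to Day7, where 18.2% of all genes rose and 18.3% fell. Between Day2 and Day3, 9 of the 12 with a value rose and 1 fell, against 15.2% and 9.06% of all genes. On Day4, 12 of the 14 were well above background, all but Lum and Postn, which were so only on Day7. The Day4 maximum of the sum was carried by Tagln (16.45) and Acta2 (13.89), and the collagens Col1a2, Col5a1 and Col3a1 read 11.80, 10.15 and 8.92 and the receptors Pdgfrb and Pdgfra 8.43 and 7.53 on that array. The log2 of the summed signal of 7 glial markers was 17.51 on Day7 against 11.31 to 12.12 on the other arrays, nearly all of it Fabp7 (17.45). On Day7, 5 of the 7 were well above background, all but Gfap and S100b, and of the 5 with a value from ES to Day7 3 rose and 1 fell, with a median of 1.26. The log2 of the summed signal of 12 primitive endoderm markers lay between 13.50 and 14.45, highest on Day7, although their median was lowest there at 5.84, and of the 8 with a value from ES to Day7 1 rose and 4 fell (1 and 2 with normexp). That of 10 mesoderm markers lay between 12.78 and 13.72, and of the 6 with a value 1 rose and 2 fell. The Day2 array stood apart, with 86.7% of its mouse probes well above background against 57.5% to 65.7% on the others, and the Day7 array was on a different slide from the rest, which leaves the effect of the slide and that of Day7 impossible to tell apart. The median SD between spots of a probe on 1 array was 0.06 to 0.11 on the log2 scale and reflects printing and scanning error, not variation between cultures.

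On every array all 18 probes were well above background and none was saturated, so every change of these 9 genes was measured on both sides. Values are quantile-normalized log2 signals, in which a difference of 1 is 2-fold, and the brightest matched probe on average stands for its gene. A change of at least 2-fold was used as a fixed rule of size. From ES to Day7, 6 of the 9 genes rose (Meg3, Dlk1, Igf2, Cdkn1c, Plagl1 and Ndn) and none fell. Over all 15827 genes with a value, 24.8% rose and 24.4% fell at least 2-fold. The median change of the 9 genes was 2.03 and that of all genes was -0.07. The genes were chosen with earlier results of these data known, so these counts are not a test of imprinted genes as a class. Peg3, Mest and Grb10, with differences of 0.54, 0.33 and 0.71, stayed under 2-fold over the whole series, but each of them had a course within it.

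**Figure D1:**
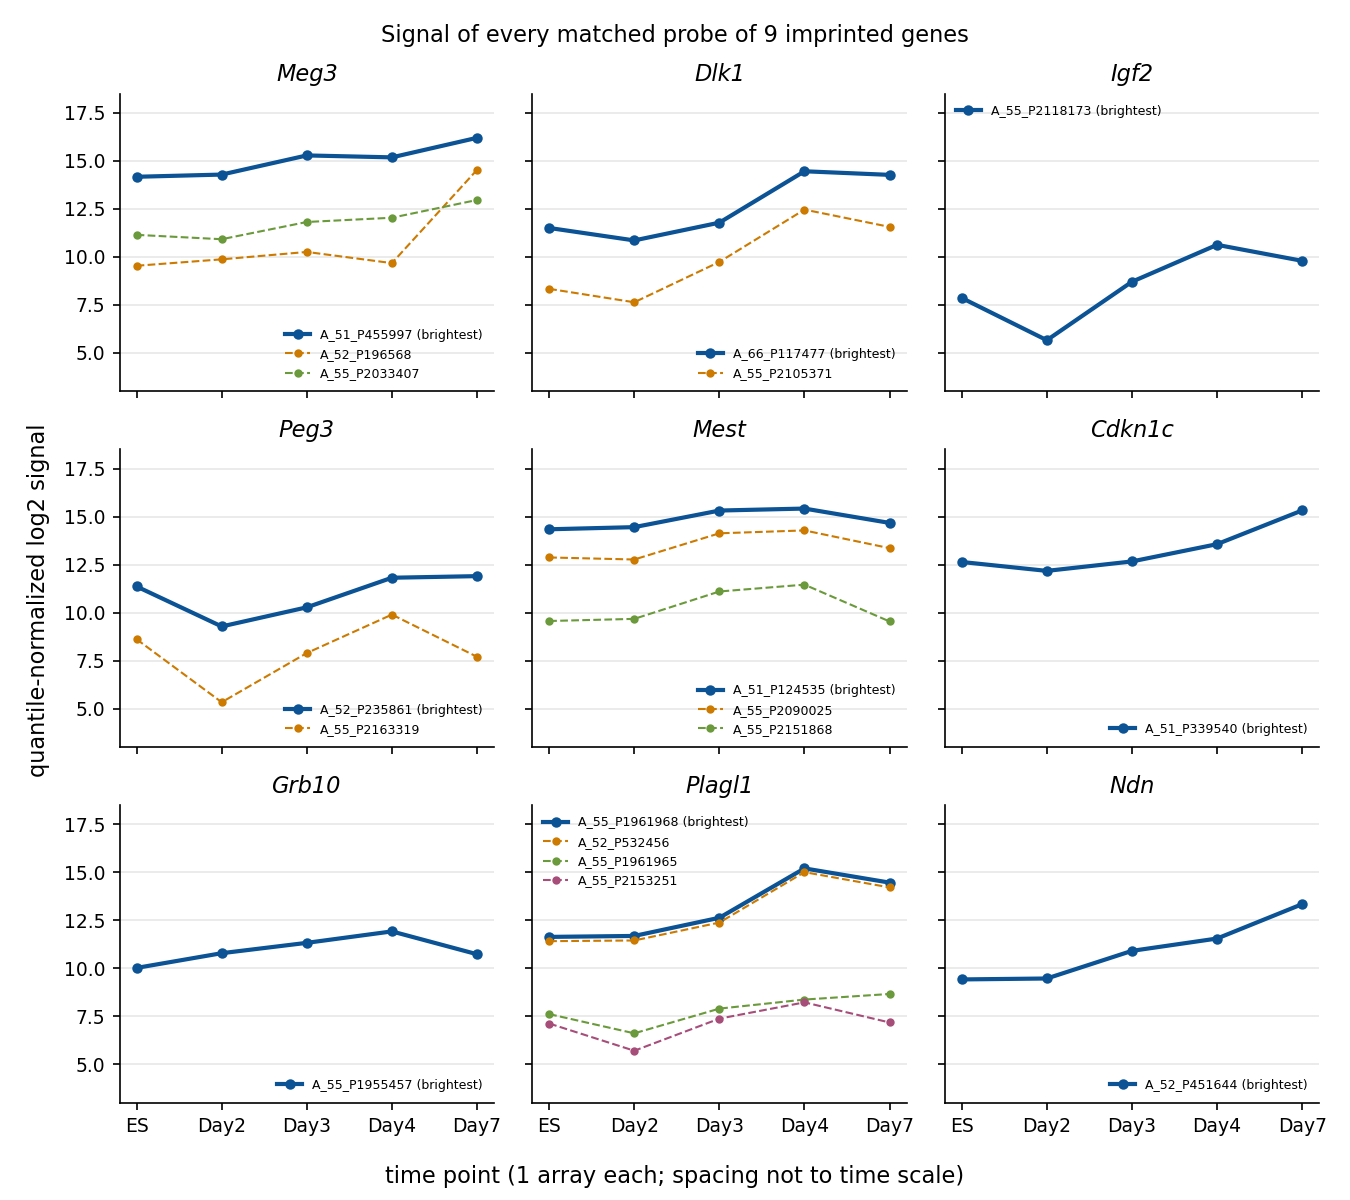
Quantile-normalized log2 signal (vertical axis) of every matched probe of the 9 imprinted genes on the 5 arrays (horizontal axis, 1 array each), with the brightest probe of each gene as a thick line and its other probes dashed. Meg3, Peg3, Cdkn1c and Ndn were highest on Day7, Dlk1, Igf2, Mest, Grb10 and Plagl1 were highest on Day4 by their brightest probe (but not without normalization between arrays), and the second Meg3 probe rose from 9.67 on Day4 to 14.52 on Day7 while the other Meg3 probes moved less.

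The 9 genes did not move at the same step. From ES to Day2 none rose and 2 fell, Igf2 and Peg3, against 12.0% and 12.6% of all genes that rose and fell. From Day2 to Day3, Igf2 and Ndn rose and none fell, against 15.2% and 9.06% of all genes. Dlk1, Peg3, Plagl1, Mest and Meg3 lay just under 2-fold at this step, with changes of 0.92, 0.996, 0.95, 0.86 and 0.997. From Day3 to Day4, when few genes moved overall (3.77% up and 5.08% down), 4 of the 9 rose, Dlk1, Igf2, Peg3 and Plagl1, and none fell. From Day4 to Day7, Meg3, Cdkn1c and Ndn rose and Grb10 fell, against 18.2% of all genes that rose and 18.3% that fell, but Meg3 was at 0.57 with the 75th percentile shift and with the deposited values, and the fall of Grb10 was a difference of 0.14 in the other direction when the arrays were not normalized. Without normalization Igf2 from ES to Day2 (-0.90) and Ndn from Day2 to Day3 (0.73) were under 2-fold too. By their brightest probes Dlk1, Igf2, Mest, Grb10 and Plagl1 were highest on Day4 and Meg3, Peg3, Cdkn1c and Ndn on Day7. This order held with the deposited values, the 75th percentile shift and normexp, except that Mest was 0.57 above ES on both Day3 and Day4 with the deposited values and with the shift. Without normalization none of the 9 genes was highest on Day4, since Dlk1, Igf2 and Plagl1 were then 1.73, 1.87 and 2.34 above ES on Day4 and 2.63, 2.37 and 2.67 above it on Day7. The sum of the fibroblast list, carried by Tagln and Acta2, was also highest on Day4, with 12 of its 14 markers well above background, and its part in the Day4 values was not tested.

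**Figure D2:**
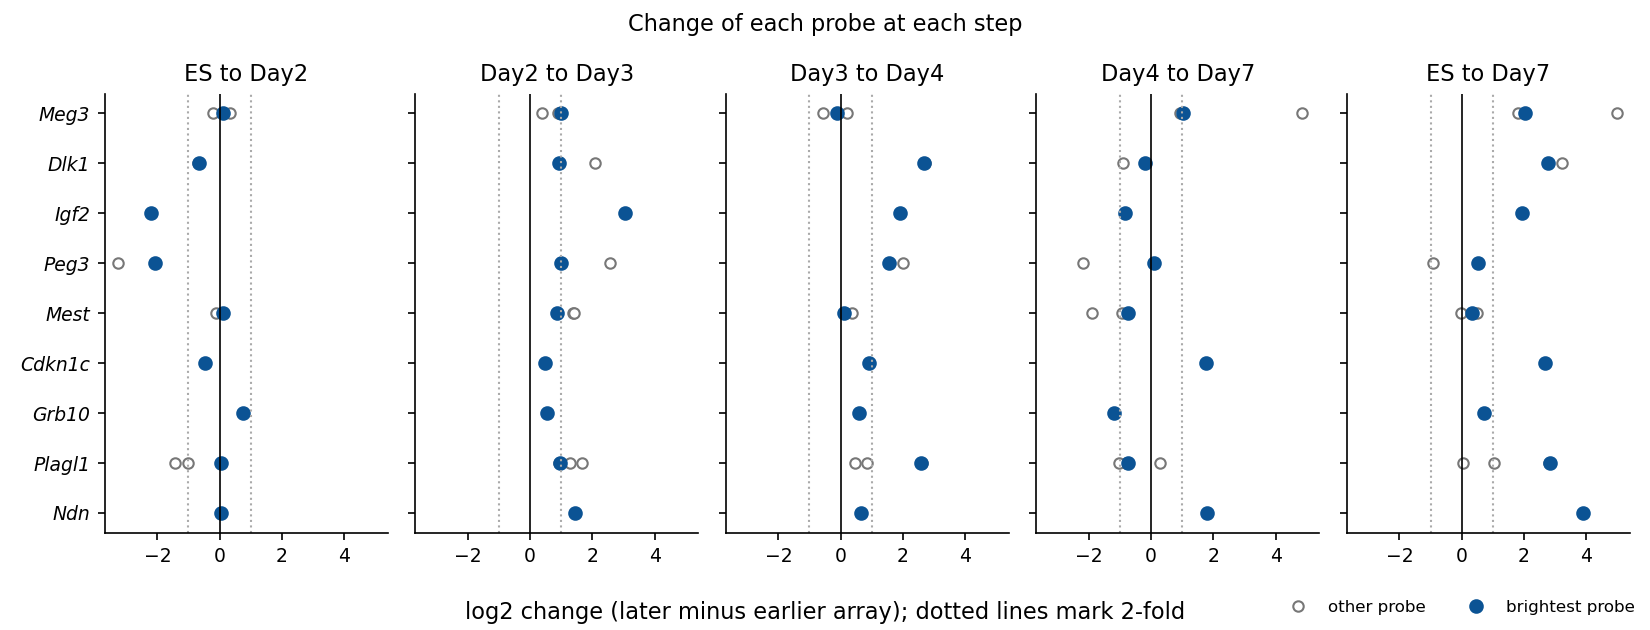
Log2 change (horizontal axis, later minus earlier array) of each probe of the 9 genes at the 4 steps and from ES to Day7, with filled points for the brightest probe, open points for other probes and dotted lines at 2-fold. Probes of a gene disagreed, among other places, for Meg3 from Day4 to Day7 (0.92 to 4.85) and from ES to Day7 (1.82 to 4.99), for Peg3 from Day4 to Day7 (-2.20 to 0.08) and for Plagl1 from ES to Day7 (0.05 to 2.83), and the fall of Grb10 from Day4 to Day7 turned to 0.14 without normalization between arrays.

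Meg3 is a long noncoding RNA expressed from the maternal chromosome. Its brightest probe read 14.17 in ES, 14.28 on Day2, 15.28 on Day3, 15.18 on Day4, then 16.19 on Day7. The signal was highest on Day7 under every normalization tried. The probe rose 4.08-fold from ES to Day7, with 0.997 from Day2 to Day3, 1.02 from Day4 to Day7 and differences of 0.11 and -0.10 at the other steps. After the 75th percentile shift the Day4 to Day7 step was 0.57 and the change from ES to Day7 was 1.09, and without normalization the Day2 to Day3 and Day4 to Day7 steps were 0.25 and 1.89. A second Meg3 probe followed a different course: it read 9.53, 9.87, 10.25 and 9.67 from ES to Day4 and 14.52 on Day7, which is 28.9-fold above Day4 (57.1-fold without normalization) and 31.8-fold above ES. This probe is matched to another RefSeq transcript of Meg3 than the other probes. The third probe read 11.14, 10.91, 11.81, 12.03 and 12.96 and rose 3.52-fold from ES to Day7. All Meg3 probes therefore rose over the series, by 1.82 to 4.99 on the log2 scale, and were highest on Day7, but the size and timing of the rise differed by probe.

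Dlk1, a transmembrane protein of the Notch ligand family that restrains differentiation of precursor cells, lies in the same imprinted domain as Meg3 and is expressed from the other parental chromosome. Its brightest probe read 11.50 in ES, 10.85 on Day2, 11.78 on Day3, 14.45 on Day4, then 14.26 on Day7. The first 3 arrays were thus alike within 2-fold, and nearly the whole rise fell between Day3 and Day4, at 2.67 (6.38-fold). The other Dlk1 probe read 8.33, 7.63, 9.73, 12.46 and 11.56, with a rise already from Day2 to Day3 (4.29-fold, or 2.02-fold without normalization) and then a further 6.60-fold to Day4. From ES to Day7 the probes rose 6.79-fold and 9.35-fold. Dlk1 and Meg3 therefore both ended higher than they began, but Dlk1 rose at the step at which Meg3 differed by -0.10, and from Day4 to Day7, when Meg3 rose, Dlk1 differed by -0.19 and -0.90 by probe (0.90 and 0.40 without normalization). In the Notch list, the receptor Notch1 rose 2.93 from ES to Day7, Notch2 differed by 0.65 (-0.84 by its other probe), and the ligands Dll1 and Jag1 by 0.49 and 0.13. The brightest Notch1 probe was highest on Day7 (8.95) but read 8.40 on Day2, above Day3 and Day4, and the other, well above background on 4 arrays, was highest on Day4 (6.18) and read 5.61 on Day7.

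The other genes of the Dlk1 and Meg3 domain took different courses. Mirg, a noncoding RNA transcribed from the maternal chromosome downstream of Meg3, read 13.04, 12.76, 13.07, 12.61 and 13.19, so its 5 values lay within 2-fold. Begain, a brain-enriched gene at the other side of Dlk1, read 8.11, 8.93, 9.86, 9.86 and 13.23 and rose 34.7-fold from ES to Day7. In these quantile-normalized values, like the brightest Meg3 probe, it was higher on Day3 than on Day2, level from Day3 to Day4 and highest on Day7. Dio3, a deiodinase that inactivates thyroid hormone, was dim at 5.35 in ES and 6.42 on Day7, a rise of 1.07 that was 0.54 under normexp background correction. Rtl1, a retrotransposon-derived gene, was well above background only on Day2 and Day4. Rian had no matched probe.

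Igf2 is a growth factor that acts through the insulin-like growth factor receptor. Its single probe read 7.86 in ES, 5.66 on Day2, 8.70 on Day3, 10.62 on Day4, then 9.79 on Day7. In these quantile-normalized values Day2 was the lowest and Day4 the highest array, 4.96 apart on the log2 scale. Without normalization the probe read 7.06 on Day2, 9.83 on Day4 and 10.33 on Day7. At the first step the signal fell by 2.20 on the log2 scale, a change that was -1.13 with the 75th percentile shift and -0.90 without normalization between arrays. It then rose 8.24-fold to Day3, which was 3.93-fold with the shift, 3.63-fold with normexp and 2.36-fold without normalization. The rise from Day3 to Day4 was 3.79-fold, and from ES to Day7 it rose 3.82-fold. The Day2 array is also the one with the largest share of probes well above background, and the part of that in its low Igf2 value was not tested.

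The pathway around Igf2 was described by a list of 15 genes, of which 14 had a value from ES to Day7. Of these 7 rose and 1 fell, with a median of 1.04, against 24.8% and 24.4% of all genes and a median of -0.07. With the 75th percentile shift 6 rose and 2 fell, with a median of 0.72. Igf1, the other growth factor, read 6.80, 5.63, 7.48, 6.23 and 10.54 and rose 13.3-fold, with its other 3 probes rising by 1.65 to 6.89. The receptors Igf1r and Insr rose 1.65 and 2.23, and the substrate Irs1, which carries their signal onward, rose 3.64, while Irs2 differed by -0.71. Igf2r, itself an imprinted gene and the receptor that removes Igf2, read 11.86, 11.60, 12.17, 12.42 and 12.15 and stayed within 2-fold over the 5 arrays. Among the binding proteins, which hold the growth factors in the medium, Igfbp5 read 6.45, 6.69, 8.47, 10.76 and 13.62 and rose 145-fold, the largest change of this list, and Igfbp4 rose 3.01-fold. Igfbp2, Igfbp3 and Igfbp6 differed by 0.95, 0.25 and -0.82, and Igfbp1 was not well above background on any array. Of the RNA-binding proteins named for the Igf2 mRNA, Igf2bp1 fell by 2.10, Igf2bp2 rose 1.12, which was 0.86 with the 75th percentile shift, and Igf2bp3 differed by 0.93.

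Grb10 is an adaptor that binds the insulin and insulin-like growth factor receptors and dampens their signal, and it is known to be expressed from the maternal chromosome in most tissues and from the paternal one in neurons. Its single probe read 10.03 in ES, 10.79 on Day2, 11.33 on Day3, 11.93 on Day4, then 10.74 on Day7. The values were higher at each step to Day4, 3.73-fold above ES, in increments that were each under 2-fold. Without normalization Day3 and Day4 stood at 0.78 and 0.85 above ES, below Day2 at 0.88. From Day4 to Day7 the signal fell by 1.19, a call that was a difference of 0.14 upward without normalization between arrays. Of the related adaptors, Grb7 read 12.88, 12.83, 12.82, 11.54 and 8.02 and fell by 4.86 from ES to Day7, Grb2 rose 1.31 (0.65 with the 75th percentile shift) and Grb14 differed by 0.36. Ddc, the neighbour of Grb10, which makes dopamine and serotonin, differed by 0.03 by its brightest probe (11.55 in ES and 11.57 on Day7) and rose 2.50 by its other probe (6.27 and 8.77).

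Cdkn1c, also called p57, is an inhibitor of cyclin-dependent kinases that accompanies exit from the cell cycle, and it is expressed from the maternal chromosome. Its single probe read 12.64 in ES, 12.17 on Day2, 12.66 on Day3, 13.56 on Day4, then 15.32 on Day7. The first 3 arrays lay within 0.49 of each other and Day7 stood above all others, 6.42-fold over ES (4.02-fold with the 75th percentile shift) and 3.38-fold over Day4 (6.92-fold without normalization). Of its relatives, Cdkn1b rose 2.84-fold from ES to Day7, from 11.34 to 12.84, and Cdkn1a differed by -0.19 by its brightest probe and fell by 1.88 by its other probe.

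The neighbours of Cdkn1c and Igf2 moved in both directions. Phlda2, a maternally expressed restraint on placental growth, read 12.50, 10.62, 9.98, 9.65 and 7.54 and fell by 4.95 from ES to Day7, lower on each later array. Ascl2, a transcription factor of the placenta and of stem cells, read 12.42, 10.92, 9.87, 10.15 and 9.01 and fell by 3.41. Kcnq1ot1, the noncoding RNA that silences neighbouring genes on the paternal chromosome, stayed between 9.10 on Day3 and 10.08 on Day4, with a difference of -0.78 from ES to Day7. Cd81, Slc22a18 and Ins2 differed by -0.22, -0.47 and -0.12, and Kcnq1 was well above background only on Day2, Day3 and Day4. Osbpl5, a lipid transfer protein of the same region, read 9.99 in ES, 10.85 on Day3, 11.31 on Day4, then 13.43 on Day7 and rose 3.45 on the log2 scale. Tspan32 fell by 1.81, and Tssc4 and Nap1l4 differed by 0.58 and 0.30. Within this region Cdkn1c, Igf2 and Osbpl5 thus rose while Phlda2, Ascl2 and Tspan32 fell.

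Plagl1, also called Zac1, is a zinc finger transcription factor known to act on other imprinted genes, among them Igf2, H19 and Cdkn1c. Its brightest probe read 11.64 in ES, 11.69 on Day2, 12.64 on Day3, 15.21 on Day4, then 14.47 on Day7. As for Dlk1, the main step lay between Day3 and Day4, at 2.57 (5.94-fold), and Day4 was 11.8-fold above ES. The next probe read 11.42, 11.46, 12.39, 15.01 and 14.22 and took nearly the same course, with a step of 2.62 from Day3 to Day4. The remaining Plagl1 probes disagreed with these. They read 7.62, 6.62, 7.91, 8.38 and 8.67, and 7.13, 5.72, 7.39, 8.23 and 7.19, so that from ES to Day7 the first of them rose 2.07-fold (1.75-fold with normexp) and the other differed by 0.05. From ES to Day4 the probes were 11.8-fold, 12.1-fold, 1.69-fold and 2.15-fold higher. Without normalization these were 5.08-fold, 5.28-fold, a difference of -0.14 and 1.17-fold, and with normexp the last was 1.73-fold, so the rise past 2-fold by the dimmest probe depended on the scaling and that by the brighter pair did not. Of its relatives, Plagl2 rose 2.98-fold from ES to Day7 by its brightest probe, with differences of -0.77 and 0.02 by its other probes, and Plag1 differed by -0.57. Phactr2, the neighbour of Plagl1, read 7.96 in ES and 7.86 on Day7.

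Peg3 is a zinc finger protein expressed from the paternal chromosome. Its brightest probe read 11.36 in ES, 9.28 on Day2, 10.28 on Day3, 11.82 on Day4, then 11.90 on Day7. The course was thus a dip: the signal fell by 2.08 to Day2 and then came back above its starting value, 6.14-fold over Day2 by Day7. The other probe read 8.61, 5.34, 7.90, 9.90 and 7.70, 9.70-fold lower on Day2 than in ES, which was 4.38-fold with the 75th percentile shift, 3.88-fold with normexp and 3.74-fold without normalization. The dip was deeper by this probe than by the brightest with quantile normalization alone, as the brightest was 4.57-fold, 3.94-fold and 3.90-fold lower under those settings. Beyond Day4 the probes parted, at a difference of 0.08 for the first and a fall by 2.20 for the other (1.33 and -0.96 without normalization), so the level on Day7 relative to ES was 0.54 by one and -0.91 by the other. The fall of Peg3 to Day2 stayed past 2-fold under every alternative tried. Dlk1 and Cdkn1c also had their lowest quantile-normalized value on Day2, with differences from ES of -0.65 and -0.46, although without normalization Cdkn1c was lowest on Day3 (-0.78).

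The measured neighbours of Peg3, Usp29 and Zim1, were higher on Day7 than in ES, where 24.8% of all genes rose at least 2-fold. Usp29, a ubiquitin-specific protease whose transcript starts from the same control region, read 5.26, 3.59, 3.71, 6.31 and 11.41 and was well above background on all arrays but Day3. It rose 71.0-fold from ES to Day7, the largest rise among the other imprinted genes. Zim1 was well above background on Day2, Day4 and Day7 and rose at least 5.24-fold from ES to Day7, but it already read 7.17 on Day4 against 7.24 on Day7. Zfp264 had no matched probe.

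Ndn encodes necdin, a protein of the MAGE family abundant in postmitotic neurons, and is expressed from the paternal chromosome. Its single probe read 9.43 in ES, 9.48 on Day2, 10.91 on Day3, 11.56 on Day4, then 13.35 on Day7. The signal was higher on each array from Day2 on and rose 15.1-fold over the series, the largest change among the 9 genes by their brightest probe. The rise from Day2 to Day3 was 1.44 (0.73 without normalization between arrays) and that from Day4 to Day7 was 1.79 (2.89 without normalization). Of the 3 other MAGE genes listed all rose from ES to Day7, where 24.8% of all genes did, though not at the same steps: Maged1 read 12.74, 13.61, 14.80, 14.87 and 16.19 and rose 10.9-fold (its last step of 1.32 was 0.90 with the 75th percentile shift), Maged2 rose 7.99-fold from 11.75 to 14.75, and Magel2, which lies beside Ndn and shares its imprint, rose 3.09-fold from 10.62 to 12.25 after a minimum of 8.84 on Day3.

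The other genes of the Ndn domain, which corresponds to the region affected in Prader-Willi and Angelman syndromes in humans, moved in both directions. Mkrn3, a ubiquitin ligase, rose 3.53-fold from ES to Day7, and its other probe by 2.20 on the log2 scale. Peg12 rose 3.83-fold from 9.79 to 11.72. Snrpn, a splicing factor, read 13.20, 12.53, 12.62, 12.25 and 14.39 and rose 1.19, which was 0.51 with the 75th percentile shift, and its other probes differed by 0.86 and 0.95. Ube3a, a ubiquitin ligase silenced on the paternal chromosome in neurons, read 10.72, 10.43, 10.21, 10.11 and 10.35, a difference of -0.37. Atp10a, a phospholipid transporter of the same domain, read 8.65 in ES, 7.95 on Day3, 7.46 on Day4, then 6.45 on Day7 and fell by 2.20 from ES to Day7.

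Mest encodes an enzyme of the hydrolase family and is expressed from the paternal chromosome. Its brightest probe was printed 10 times on each array and read 14.34 in ES, 14.45 on Day2, 15.31 on Day3, 15.42 on Day4, then 14.67 on Day7, with an SD between its spots of 0.04 to 0.07, which does not cover variation between cultures. The difference from Day2 to Day3 was 0.86, under 2-fold, and was 0.14 without normalization between arrays. The other probes read 12.87, 12.76, 14.13, 14.28 and 13.36, and 9.56, 9.67, 11.10, 11.46 and 9.54, and both rose at this step, 2.57-fold and 2.69-fold, but 1.55-fold and 1.65-fold without normalization. All Mest probes were highest on Day4, where without normalization the brightest was at -0.39 against ES, and from Day4 to Day7 they differed by -0.75, -0.92 and -1.92, which without normalization were 0.31, 0.26 and -0.58. From ES to Day7 the differences were 0.33, 0.48 and -0.02, and the brightest probe was at -0.44 with the 75th percentile shift. Copg2, which lies beside Mest, read 10.95, 11.54, 12.01, 12.12 and 11.03, also with its highest quantile-normalized value on Day4. Without normalization it was 0.23 higher on Day7 than on Day4. Klf14, a transcription factor further along the same domain, was dim at 6.34 in ES and was not well above background on Day7, at least 3.22-fold lower, a bound that was under 2-fold with normexp background correction.

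The likeness of courses was measured as the root mean square difference over the 5 arrays after each gene was centred on its own mean, so that a smaller value means more similar courses. It used the quantile-normalized values of the brightest probes, and other scalings or probes were not compared. Among the 9 genes, Mest and Grb10 (0.28) and Dlk1 and Plagl1 (0.32) were the closest pairs, and Plagl1 was also among the 3 genes nearest to Dlk1 of the 13468 genes well above background on all arrays. Meg3 and Dlk1, of 1 domain, were 1.03 apart. Igf2 and Cdkn1c, also of neighbouring domains, were 1.23 apart. The closest gene overall was Nkx6-2 for Dlk1 (0.26), a homeobox gene of the ventral neural tube, Pappa for Plagl1 (0.27), a protease that cleaves insulin-like growth factor binding proteins, and Nkx2-4 for Igf2 (0.38). Meis3, a homeobox gene, was closest to Ndn (0.11) and Neto2 to Cdkn1c (0.04). The closest genes to the rest were Zfp316 for Meg3 (0.08), Tcim for Peg3 (0.26), Srebf1 for Mest (0.04) and Parva for Grb10 (0.05). With 5 arrays and 13468 genes some gene will always lie close, so these values describe the arrays and carry no test.

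**Figure D3:**
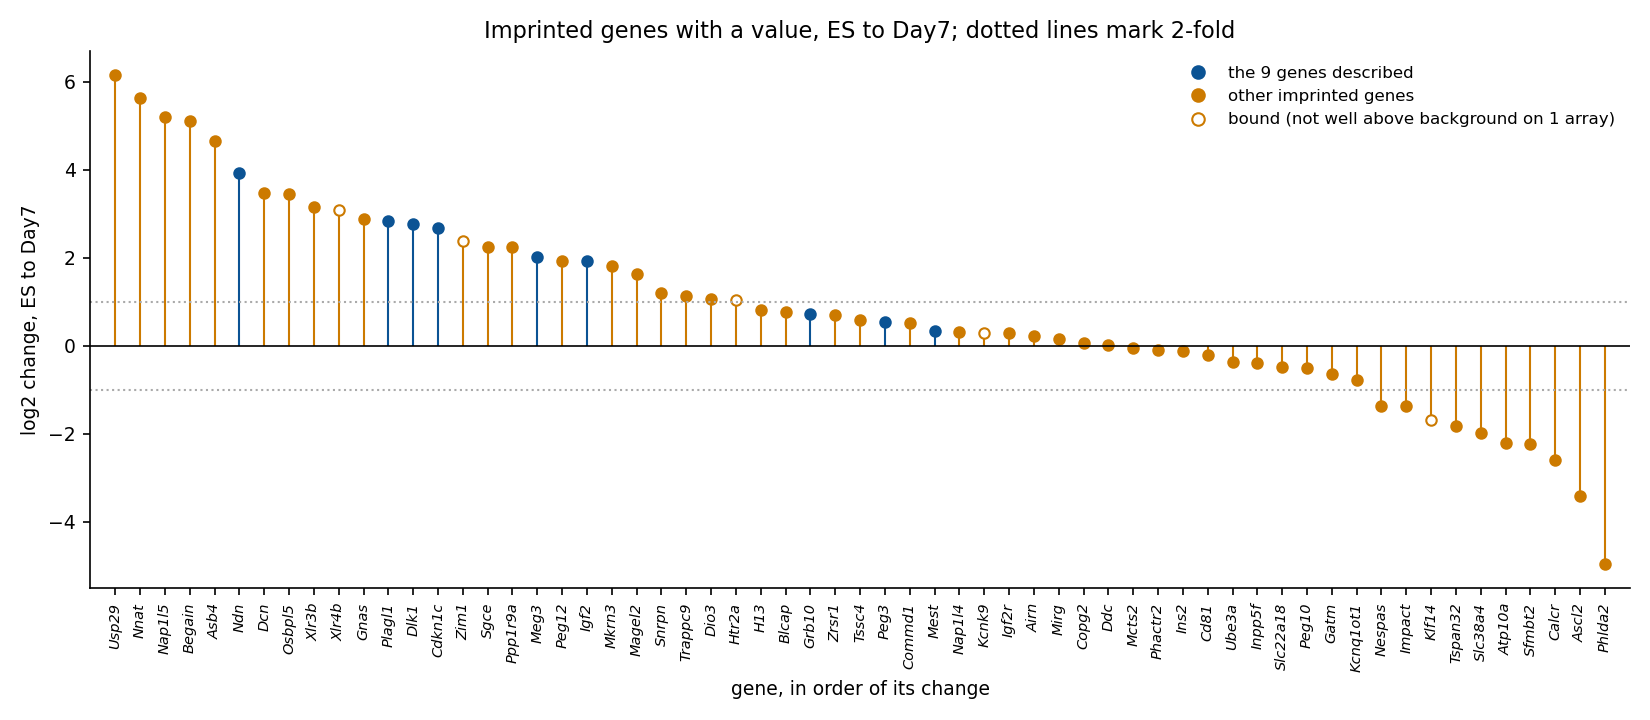
Log2 change from ES to Day7 (vertical axis) of the imprinted genes with a value, in order of the change, with the 9 genes described in blue, 52 other imprinted genes in orange, open symbols for bounds and dotted lines at 2-fold. Usp29 (6.15) and Phlda2 (-4.95) stood at the ends, and the 9 genes lay between 0.33 for Mest (-0.44 with the 75th percentile shift) and 3.92 for Ndn.

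The wider family of imprinted genes was described by a list of 62 further genes, of which 58 had a matched probe and 52 a value from ES to Day7. Of these 20 rose and 10 fell, with a median of 0.30, against 24.8% and 24.4% of all genes and a median of -0.07. The 5 largest rises were those of Usp29, of Nnat, a small membrane protein of neurons and endocrine cells (5.62), of Nap1l5, a nucleosome assembly protein (5.21), of Begain (5.12) and of Asb4 (4.65). The second Nnat probe rose 5.68 and the second Nap1l5 probe 5.62 in the same comparison, whereas the second Asb4 probe differed by 0.44. The 5 largest falls were those of Phlda2 and Ascl2, given above, of Calcr, the calcitonin receptor (-2.59), of Sfmbt2, a Polycomb gene of the placenta (-2.23) and of Atp10a (-2.20). The other Sfmbt2 probes changed by -1.84 and -0.53. With the 75th percentile shift 17 rose and 11 fell, with a median of 0.08.

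**Figure D4:**
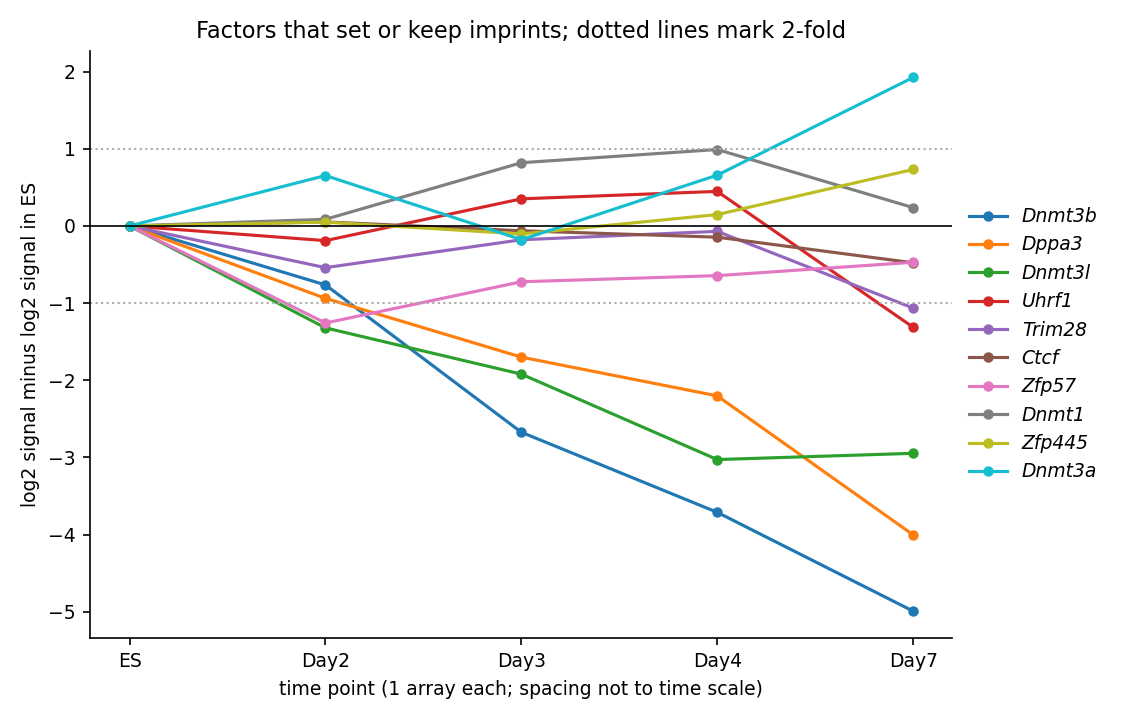
Log2 signal minus the log2 signal in ES (vertical axis) of 10 factors that set or keep imprints on the 5 arrays (horizontal axis, 1 array each), with dotted lines at 2-fold. On Day7 Dnmt3b stood at -4.99 and Dnmt3l at -2.95, Dppa3 lay between them, Dnmt3a stood at 1.92, and Dnmt1, Ctcf, Zfp57 and Zfp445 ended within 2-fold of ES.

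The factors that set or keep imprints were measured on the same arrays. Of 10 listed, 1 rose and 5 fell from ES to Day7, with a median of -0.77, against 24.8% and 24.4% of all genes and a median of -0.07. The counts were the same under each of the 4 other scalings, with medians from -1.41 with the 75th percentile shift to -0.80 with normexp. Dnmt3b, a de novo methyltransferase, read 16.98, 16.22, 14.31, 13.27 and 11.99 and was lower on each later array, and its other probes changed by -4.61 and -4.71 from ES to Day7. Its step from Day4 to Day7 was -1.28, but -0.01 without normalization. Dppa3, which protects the maternal genome from demethylation in the zygote, fell from 12.46 in ES to 8.46 on Day7, and Dnmt3l, the cofactor of de novo methylation in germ cells, fell by 2.95. Dnmt3a, the other de novo methyltransferase, read 10.21, 10.87, 10.04, 10.87 and 12.14 and rose 3.80-fold. Of the upkeep machinery, Trim28 fell by 1.06 and Uhrf1, which brings Dnmt1 to replicated DNA, fell by 1.31, while Dnmt1 read 11.43, 11.52, 12.25, 12.42 and 11.67. Zfp57 read 10.98 in ES and was lowest on Day2 at 9.72. It differed by -0.47 from ES to Day7, and Zfp445 and Ctcf differed by 0.73 and -0.48 from ES to Day7.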

How the data were processed

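Gene expression was measured in mouse ES cells and on Day2, Day3, Day4 and Day7 of their differentiation to motor neurons, with 1 Agilent 1-colour array each. The authors deposited the scanner output (Agilent Feature Extraction 10.5.1, per the submitters' processing notes), which holds spot intensity after background subtraction and detrending, with flags for signals well above background. A table of log2 values was deposited too, and it equals the log2 median spot signal minus a constant for each array, near its 75th percentile, within 0.01 for 99.5% to 99.6% of probes, by array. No column of that table was left without a sample.

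After removal of control spots and outlier spots, log2 processed intensities were averaged per probe, and the 5 arrays were quantile-normalized in limma 3.58.1 (R 4.3.3), since a figure legend of the study names quantile analysis. Later steps used Python 3.11.15, numpy 2.4.6 and pandas 2.3.3, and plots matplotlib 3.10.9. Of 55681 mouse probes, 26300 were matched by accession to 19897 RefSeq symbols of GRCm38.p6, used for names only, and 5339 genes had several probes, of which the brightest on average stood for the gene. A probe counted as well above background on an array where at least 0.5 of its spots did. A side not well above background was set at the higher of its value and the lowest value well above background on that array, and the change is then written as at least that size. Where both sides were dim the gene had no value.

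With 1 array per time point no p-value was computed. The number of arrays limits the precision of every value. Changes of at least 2-fold were counted, and the same counts over all genes are given beside them. The calculation of changes and the 2-fold count were tested on a copy of the ES array with small noise and known changes added. Normalization, probe matching and variation between cultures were not covered by that test. The 10 genes, the other gene lists and the rules were chosen with earlier results of these data known. Genes named are the 10 genes with every matched probe, their domain neighbours, the 5 largest rises and falls in the list of other imprinted genes, the members of the smaller lists, and the genes nearest in course, of 3 found for each the closest being given. Alternatives were a shift to the 75th percentile, no normalization, normexp (offset 50) followed by quantile normalization, the deposited log2 values, dim probes kept as they are, both sides required to be well above background, a mean in place of the brightest probe, and 1.5-fold or 4-fold as the rule of size. A slide term could not be fitted, as Day7 had a slide to itself. The dimmest probe of each gene was added after seeing the data.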

Additional observations from a re-analysis of the deposited data

How the results depend on the processing

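With 1 array per time point the limit on every value is the number of arrays, and no replicate could be left out. No paired analysis was possible because there was a single array for each group, and a slide term could not be fitted, as Day7 had a slide to itself. Of the 18 changes of the 9 genes past 2-fold, every one kept its direction under every alternative except Grb10 from Day4 to Day7, which was 0.14 without normalization between arrays. All 18 stayed past 2-fold under normexp, without the filter on dim probes, with both sides well above background and with the mean over probes, 17 did with the 75th percentile shift and with the deposited values, 16 with the dimmest probe (chosen after seeing the data) and 15 without normalization. Those lost were Meg3 from Day4 to Day7 (0.57 with the shift and with the deposited values), Igf2 from ES to Day2 (-0.90) and Ndn from Day2 to Day3 (0.73) besides Grb10 without normalization, and Plagl1 from Day3 to Day4 (0.85) and from ES to Day7 (0.05) with the dimmest probe. The median change of all genes from ES to Day7, dim ones included, was -0.02 with quantile normalization and -0.58 with the 75th percentile shift, and without normalization that median was 0.25, -0.87, -0.51 and 1.15 over the 4 steps, against which the values under these settings should be read.

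The counts depended more on the setting than the directions did. Of genes that rose from Day2 to Day3, against 2, there were 4 with the 75th percentile shift and with the deposited values, 1 without normalization, 6 with the mean over probes and with the dimmest probe, 7 at 1.5-fold and 1 at 4-fold. Of those that fell from Day4 to Day7, against 1, there were 2 with the shift and with the deposited values, 0 without normalization, 3 with the mean over probes, 4 with the dimmest probe and at 1.5-fold, and 0 at 4-fold. At 1.5-fold 1 gene rose from ES to Day2, and 7 did from Day3 to Day4. At 4-fold 2 genes rose from Day3 to Day4, 0 from Day4 to Day7, and 13 and 5 of the wider list rose and fell from ES to Day7. Without normalization 1 gene fell from ES to Day2. From ES to Day7 no alternative gave a fall among the 9 genes, and 5 to 7 of them rose. The cause of these shifts was not tested.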
